A study of Homo sapiens with 6 samples.

Results

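The genes that make, break down and bind hyaluronan were followed in HFL-1 cells after siRNA against TAZ. The set holds 10 genes, the synthases HAS1, HAS2 and HAS3, the hyaluronidases HYAL1, HYAL2 and HYAL3, the hyaluronan-depolymerizing gene KIAA1199, the receptor CD44, and the binding proteins TNFAIP6 and VCAN. They were taken by symbol from the 23355 named entries of the count table, and all 10 were found. Of these, 9 passed the filter on low counts, as did 14053 genes in all, and HAS1 did not.

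HFL-1 is a line of human fetal lung fibroblasts, and all groups came from this single line under standard growth conditions. Cells were transfected with Lipofectamine RNAiMAX and a non-targeting control siRNA (siNTC), siTAZ #1 or siTAZ #2, and total RNA was taken after 48 h. There were 2 libraries per group and 6 in all, which the series calls biological replicates. The question put to these libraries was how each TAZ siRNA moved the hyaluronan genes, and whether the siRNAs differed from each other. Both siRNAs were compared with the same siNTC libraries, so these comparisons are not independent.

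Hyaluronan is a long, unbranched sugar polymer of the extracellular matrix. It is spun out at the plasma membrane by HAS enzymes from UDP-glucuronic acid and UDP-N-acetylglucosamine, is cut by hyaluronidases and by surface or secreted depolymerases, and is organized outside the cell by proteins with link modules. In lung, fibroblasts are a main source of it, and its amount and chain length are known to change during injury and fibrosis.

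Counts on named genes came to between 15648055 and 32078188 per library. Levels are given as CPM, counts scaled to a common library size after TMM normalization, and called differences are those with an FDR under 0.05 in edgeR's quasi-likelihood test over all 14053 genes. WWTR1, the gene of TAZ, was at 132.2 and 130.8 CPM with siNTC, 26.4 and 28.4 with siTAZ #1, and 46.1 and 43.1 with siTAZ #2, so that it fell by 2.26 and 1.56 on the log2 scale (FDR 0.00062 and 0.00068). In siTAZ #1 replicate 2, genes between RANGAP1 on chromosome 22 and the last gene of Y held 0.243% of the counts, against 3.31% to 3.48% in the other libraries. No hyaluronan gene lies there, but 562 of the genes tested do, and they raised the common dispersion of the fit from 0.0187 to 0.0807. The 9 fibroblast markers were at 1 CPM or more in every group and summed to 34878 to 34966 CPM with siNTC, 23174 to 24049 with siTAZ #1 and 27180 to 28939 with siTAZ #2. Single markers went both ways. COL1A2, DCN and LUM were called lower with both siRNAs, and PDGFRB higher with both. With siTAZ #1 only, COL1A1 fell and PDGFRA rose. With siTAZ #2 only, COL3A1 and VIM fell and THY1 rose. Markers of epithelial, endothelial, leukocyte and mesothelial cells summed to at most 75.7 CPM per list, carried mostly by KRT18, TEK, CD68 and CALB2, while SFTPC, CDH5, PTPRC and MSLN were at 0.374 CPM or less in every library. From siNTC to siTAZ #2, the leukocyte sum went from 74.2 to 75.4 CPM down to 38.3 to 49.0, the endothelial sum from 42.1 to 42.5 down to 26.1 to 31.3, the epithelial sum from 37.7 to 39.3 up to 47.9 to 53.4, and the mesothelial sum from 7.13 to 9.89 up to 13.9 to 14.9, and the part of these shifts in the results was not tested. The leukocyte fall was carried by CD68 (73.8 and 75.1 CPM with siNTC, 37.8 and 48.3 with siTAZ #2). The endothelial fall was carried by TEK (41.2 and 41.0 CPM, then 24.0 and 27.8), and the rises mostly by KRT18 and CALB2. A shift in a single gene of a list does not by itself show a shift in cells of that kind. In such bulk RNA, fewer cells of a kind and less RNA per cell cannot be told apart.

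The siRNAs shared the fall of KIAA1199 and the rise of HYAL2, and parted over HAS2, CD44 and VCAN. With siTAZ #1, 2 of the 9 genes tested were called, KIAA1199 lower and HYAL2 higher. That share, 22.2%, was near the 20.6% of all genes tested that were called in the same comparison (9.78% lower and 10.8% higher). With siTAZ #2, 5 of the 9 were called, which is 55.6% against 28.5% of all genes (14.4% lower and 14.1% higher). HAS2 and KIAA1199 fell, and HYAL2, CD44 and VCAN rose. In the direct comparison of the siRNAs, 5 of the 9 were called against 28.6% of all genes (13.4% lower and 15.2% higher, a split that a GC offset moved from 46.8% to 34.6% lower among the called genes), with HAS2, TNFAIP6 and KIAA1199 higher and CD44 and VCAN lower with siTAZ #1 than with siTAZ #2. HAS3, HYAL1 and HYAL3 were called in none of the comparisons. The median log2 fold change of the 9 genes was -0.12 with siTAZ #1 and -0.36 with siTAZ #2, beside 0.02 and 0.01 over all genes tested.

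**Figure D1:**
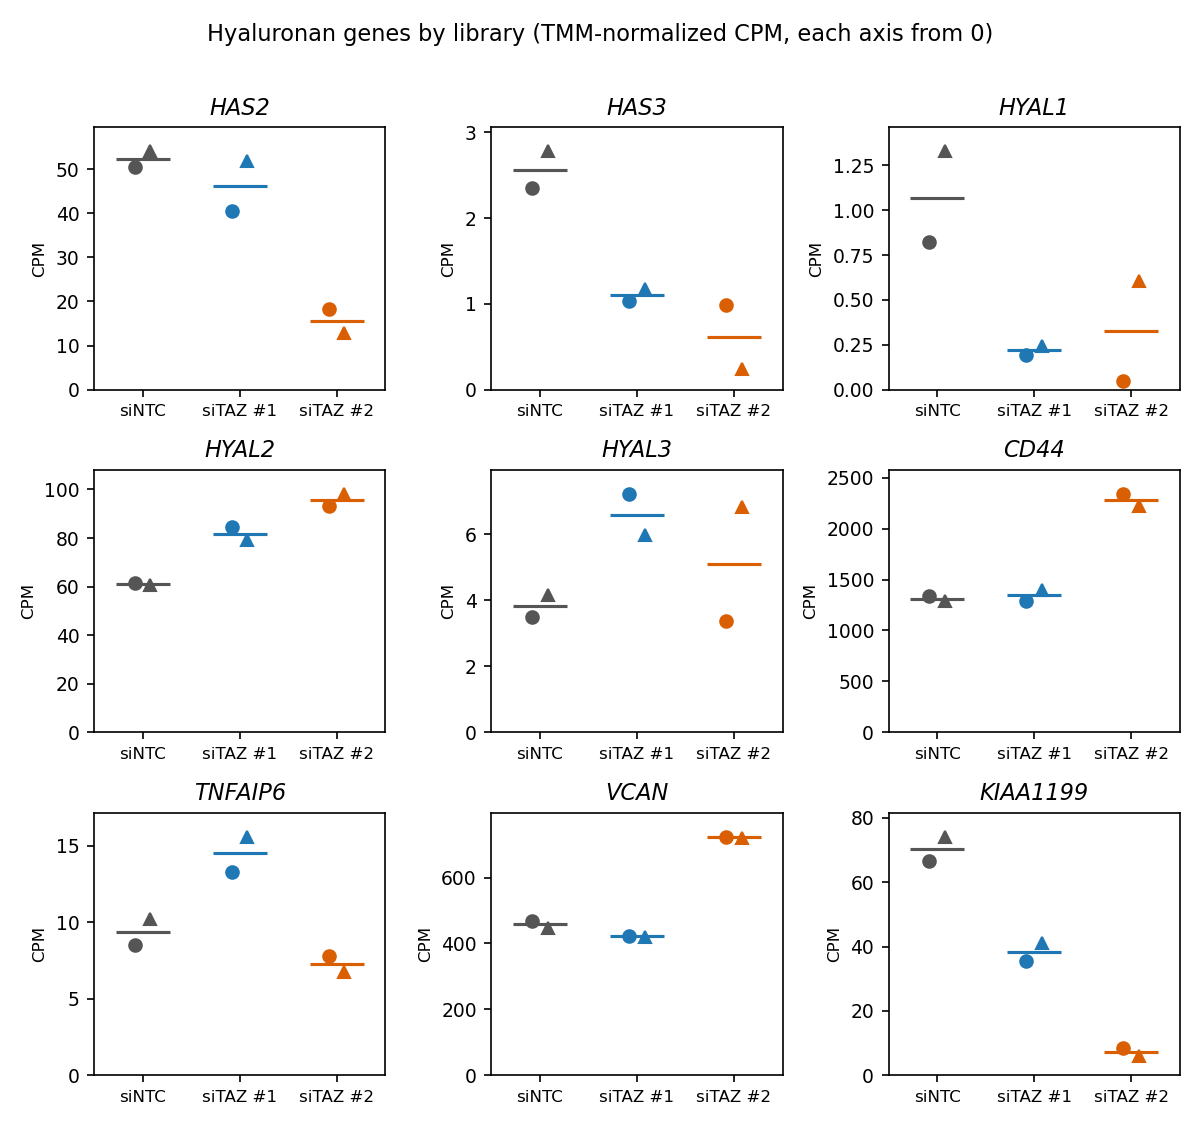
TMM-normalized CPM of the 9 tested hyaluronan genes in each of the 6 libraries, by transfection, with a circle for replicate 1, a triangle for replicate 2 and a line at the group mean. KIAA1199 steps down from siNTC to siTAZ #1 to siTAZ #2, while CD44 and VCAN stand apart with siTAZ #2.

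Separation of the libraries alone was common across the genome. With siTAZ #1, both libraries lay below both siNTC libraries for 4 of the 9 genes and above for 3, so that 7 did not overlap, against 64.3% of all genes tested (31.1% below and 33.2% above). With siTAZ #2, 5 lay below and 3 above, against 71.4% (35.5% and 36%). Between the siRNAs, 3 lay below and 4 above, against 65.6% (33% and 32.6%). Separation was thus read together with the test, and no permutation of 2 libraries against 2 can give a p below 0.33.

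HAS2 carried nearly all synthase RNA in these fibroblasts. The enzyme makes long hyaluronan chains, and its gene, on chromosome 8, took 94.9% to 98.2% of the counts on the 3 synthase genes in every library. Its lowest share, in siTAZ #2 replicate 1, rested on 412 synthase counts (95% Wilson interval 92.3% to 96.6%). HAS2 was at 50.5 and 54.1 CPM with siNTC, 40.5 and 51.8 with siTAZ #1, and 18.3 and 12.9 with siTAZ #2. The siTAZ #1 libraries reached into the siNTC range, and the siTAZ #2 libraries lay well below every other library. With siTAZ #2 HAS2 fell by 1.74 on the log2 scale (SE 0.21, FDR 0.0034), to 0.299 of its control level. With siTAZ #1 the log2 fold change was -0.18 (SE 0.21, FDR 0.58), with an interval from -0.69 to 0.33. HAS2 was 2.96-fold higher with siTAZ #1 than with siTAZ #2 (log2 1.56, SE 0.21, FDR 0.0046). HAS2-AS1, the antisense gene that overlaps HAS2, had 10 to 47 counts per library, and HAS2 itself had 214 to 1689.

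HAS3, which makes shorter chains, was low throughout. It had 37 and 44 counts with siNTC, 16 and 38 with siTAZ #1, and 21 and 4 with siTAZ #2, or 2.35 and 2.78, 1.03 and 1.17, and 0.982 and 0.242 CPM. All siTAZ libraries lay below both siNTC libraries. The log2 fold changes were -1.21 (SE 0.59, FDR 0.21) with siTAZ #1 and -2.01 (SE 0.63, FDR 0.06) with siTAZ #2, neither past the threshold. The siTAZ #2 value passed in 8 of 18 alternative settings, with FDRs down to 0.002, among them both fits that left out 1 siTAZ #1 library (FDR 0.021 and 0.02), and with siTAZ #2 replicate 1 left out it was -3.37 (FDR 0.033). HAS3 shares 710 bases with CHTF8 on the opposite strand, a gene with 2744 to 4082 counts per library, and whether the counting used strand is not given in the sources used here. HAS1, the least active of the synthases, had 1 and 0 counts with siNTC, 0 and 4 with siTAZ #1, and 0 and 0 with siTAZ #2. A count of 0 over the siTAZ #2 group allows a level of up to 0.079 CPM. HAS1 was not tested, and a fall from levels this low could not be detected at this depth.

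KIAA1199, now named CEMIP, had the largest changes among the hyaluronan genes called with both siRNAs. Its product binds hyaluronan and is needed for its depolymerization by skin fibroblasts, a route separate from the hyaluronidases. The gene lies at chr15:81071684-81244117 (GRCh37). It was at 66.7 and 74.2 CPM with siNTC, 35.4 and 41.1 with siTAZ #1, and 8.41 and 6.10 with siTAZ #2. The groups formed separate steps, with no library of one group inside the range of another. KIAA1199 fell to 0.543 of its control level with siTAZ #1 (log2 -0.88, SE 0.19, FDR 0.025) and to 0.103 with siTAZ #2 (log2 -3.28, SE 0.20, FDR 0.00064). The level with siTAZ #1 was 5.25-fold that with siTAZ #2 (log2 2.39, SE 0.20, FDR 0.0012). The siTAZ #2 fall and the difference between the siRNAs were called in each of 19 alternative settings. The siTAZ #1 fall missed the threshold when siNTC replicate 1 (FDR 0.11) or siNTC replicate 2 (FDR 0.15) was left out, with an offset for GC content (FDR 0.088), and in the exact test of edgeR run on 4 libraries (FDR 0.1). MESDC2, on the opposite strand, shares 5488 bases with KIAA1199 and had 933 to 4026 counts per library.

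The 250 bases before the transcription start of KIAA1199 and HYAL2 are shown because these are the genes called in the same direction with both siRNAs. TAZ acts on DNA through TEAD factors, whose element is known as CATTCC, and capitals mark that element on either strand (CATTCC or GGAATG). The sequences are from RefSeq on GRCh38.p14 and run in the direction of transcription, KIAA1199 from chr15:80779120-80779369 on the plus strand and HYAL2 from chr3:50322746-50322995 on the minus strand.
KIAA1199: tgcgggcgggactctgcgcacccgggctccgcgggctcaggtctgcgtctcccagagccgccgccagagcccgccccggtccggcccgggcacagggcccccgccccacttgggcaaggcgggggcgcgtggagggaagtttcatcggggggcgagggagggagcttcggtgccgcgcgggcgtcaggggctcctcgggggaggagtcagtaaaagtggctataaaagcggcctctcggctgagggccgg
HYAL2: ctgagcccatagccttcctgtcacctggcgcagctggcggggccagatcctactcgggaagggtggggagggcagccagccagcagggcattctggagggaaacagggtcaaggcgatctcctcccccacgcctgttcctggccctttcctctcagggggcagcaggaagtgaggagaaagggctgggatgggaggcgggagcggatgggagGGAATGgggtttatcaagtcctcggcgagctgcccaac
The KIAA1199 window had no such element, and the HYAL2 window had 1, beginning 38 bases before the start. Windows were found for 9 of the 10 genes, and 2 genes, HYAL2 and HYAL3, had the element. For HYAL3 it was in 1 of its 2 windows. Of all 35116 windows of this length in the table, 11.9% had it. A match of these letters is a description and says nothing on binding, and a window without them leaves the rest of a gene unexamined.

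HYAL2, the surface hyaluronidase that cuts long chains into fragments for uptake, was the only hyaluronidase called. It lies at chr3:50355221-50360213 (GRCh37), beside HYAL1 and HYAL3. Its level was 61.5 and 60.5 CPM with siNTC, 84.5 and 79.0 with siTAZ #1, and 93.4 and 98.2 with siTAZ #2. Every siTAZ library lay above both controls, and the siTAZ #2 libraries lay above those of siTAZ #1. HYAL2 rose 1.34-fold with siTAZ #1 (log2 0.42, SE 0.09, FDR 0.024) and 1.57-fold with siTAZ #2 (log2 0.65, SE 0.09, FDR 0.0047). The difference between the siRNAs was -0.23 (SE 0.09, FDR 0.11) and had the opposite sign, 0.11, with an offset for GC content. The siTAZ #1 rise was not called without siNTC replicate 1 or 2 (FDR 0.14 and 0.16), without siTAZ #2 replicate 1 or 2 (FDR 0.055 and 0.062), without a filter on low counts (FDR 0.055), or on 4 libraries alone (FDR 0.059, and 0.57 in the exact test). The siTAZ #2 rise was not called without siNTC replicate 1 or 2 (FDR 0.051 and 0.056). TUSC2, which shares 2756 bases with HYAL2 on the same strand, had 517 and 477 counts with siNTC, 254 and 614 with siTAZ #1, and 985 and 756 with siTAZ #2. Its part in the HYAL2 values was not tested.

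The other hyaluronidases were scarce. HYAL1, the lysosomal enzyme that digests fragments further, had 13 and 21 counts with siNTC, 3 and 8 with siTAZ #1, and 1 and 10 with siTAZ #2. All siTAZ libraries were below both controls in CPM, and the spread within siTAZ #2 was wide, 0.0467 and 0.604 CPM. The log2 fold changes, -2.23 (SE 0.98, FDR 0.17) and -1.79 (SE 0.97, FDR 0.22), did not pass the threshold in the fit of 6 libraries and passed it in the exact test on 4 (FDR 0.023 and 0.045). Without siTAZ #2 replicate 2 the siTAZ #2 value was -4.38. HYAL3, a hyaluronidase-like gene of the same cluster, was at 3.49 and 4.17 CPM with siNTC, 7.23 and 5.98 with siTAZ #1, and 3.37 and 6.83 with siTAZ #2. The siTAZ #1 libraries lay above the controls and the siTAZ #2 libraries on both sides of them. Neither log2 fold change was called, 0.78 (SE 0.38, FDR 0.20) and 0.41 (SE 0.38, FDR 0.47).

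**Figure D2:**
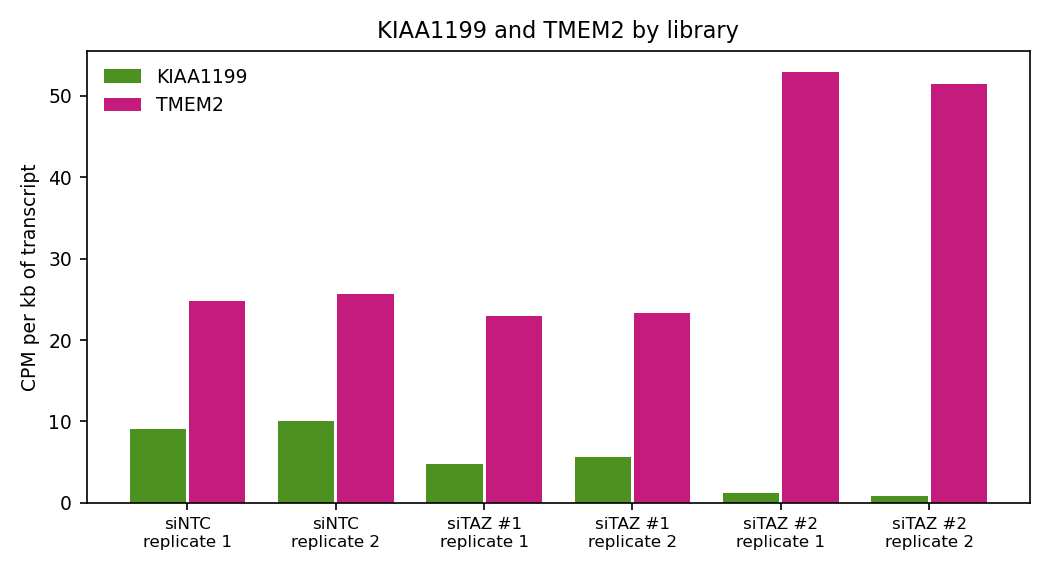
CPM per kb of transcript of KIAA1199 and TMEM2 in each of the 6 libraries. TMEM2 is 2.53 to 2.73 times KIAA1199 with siNTC and 46.2 to 62.0 times with siTAZ #2.

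TMEM2, now named CEMIP2, is the close relative of KIAA1199 and codes for a surface protein linked to hyaluronan breakdown. It was at 152.4 and 157.2 CPM with siNTC, 141.7 and 143.6 with siTAZ #1, and 325.3 and 316.6 with siTAZ #2. The siTAZ #2 libraries were all above the rest, and the siTAZ #1 libraries a little below the controls. TMEM2 rose 2.07-fold with siTAZ #2 (log2 1.05, SE 0.07, FDR 0.00074), while its log2 fold change with siTAZ #1 was -0.12 (SE 0.07, FDR 0.30). The relatives thus moved opposite ways with siTAZ #2. Per kb of transcript, the ratio of TMEM2 to KIAA1199 was 2.73 and 2.53 in the siNTC libraries, 4.79 and 4.18 with siTAZ #1, and 46.2 and 62.0 with siTAZ #2.

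CD44, the main cell-surface receptor for hyaluronan, had the highest level per kb of transcript of the 10 genes in every group. It lies at chr11:35160429-35253949 (GRCh37). Its level was 1336 and 1285 CPM with siNTC, 1289.6 and 1400.5 with siTAZ #1, and 2340.2 and 2220.1 with siTAZ #2. The siTAZ #1 libraries overlapped the control range, and both siTAZ #2 libraries were far above it. CD44 rose 1.74-fold with siTAZ #2 (log2 0.80, SE 0.09, FDR 0.0023). With siTAZ #1 the log2 fold change was 0.04 (SE 0.09, FDR 0.79), with an interval from -0.17 to 0.25, and was -0.02 without siTAZ #1 replicate 2. The difference between the siRNAs was -0.76 (SE 0.09, FDR 0.0026), which the exact test on 4 libraries did not call (FDR 0.086). Counts per gene do not separate the splice forms of CD44.

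VCAN codes for versican, a large proteoglycan that binds hyaluronan through its link modules and swells the provisional matrix. It lies at chr5:82767437-82878122 (GRCh37). Its level was 469.4 and 448.5 CPM with siNTC, 424.0 and 419.3 with siTAZ #1, and 724.6 and 719.9 with siTAZ #2. The siTAZ #2 libraries stood above and the siTAZ #1 libraries slightly below the controls. VCAN rose 1.57-fold with siTAZ #2 (log2 0.65, SE 0.07, FDR 0.0024). Its log2 fold change with siTAZ #1 was -0.12 (SE 0.07, FDR 0.28), with an interval from -0.30 to 0.05. The difference between the siRNAs, -0.78 (SE 0.07, FDR 0.0016), was again not called in the exact test on 4 libraries (FDR 0.071).

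TNFAIP6 codes for TSG-6, a secreted protein that attaches heavy chains of inter-alpha-inhibitor to hyaluronan and is induced in inflammation. It lies at chr2:152214106-152236560 (GRCh37). Its level was 8.50 and 10.2 CPM with siNTC, 13.3 and 15.6 with siTAZ #1, and 7.81 and 6.76 with siTAZ #2. The siTAZ #1 libraries were the highest and the siTAZ #2 libraries the lowest. Neither comparison with siNTC was called, with log2 fold changes of 0.63 (SE 0.20, FDR 0.082) and -0.36 (SE 0.21, FDR 0.24). The first was called without siTAZ #1 replicate 1 (log2 0.74, FDR 0.034). TNFAIP6 was 1.99-fold higher with siTAZ #1 than with siTAZ #2 (log2 0.99, SE 0.21, FDR 0.018). That call was lost without siTAZ #2 replicate 1 (FDR 0.066) or replicate 2 (FDR 0.10), and in the exact test on 4 libraries (FDR 0.093).

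**Figure D3:**
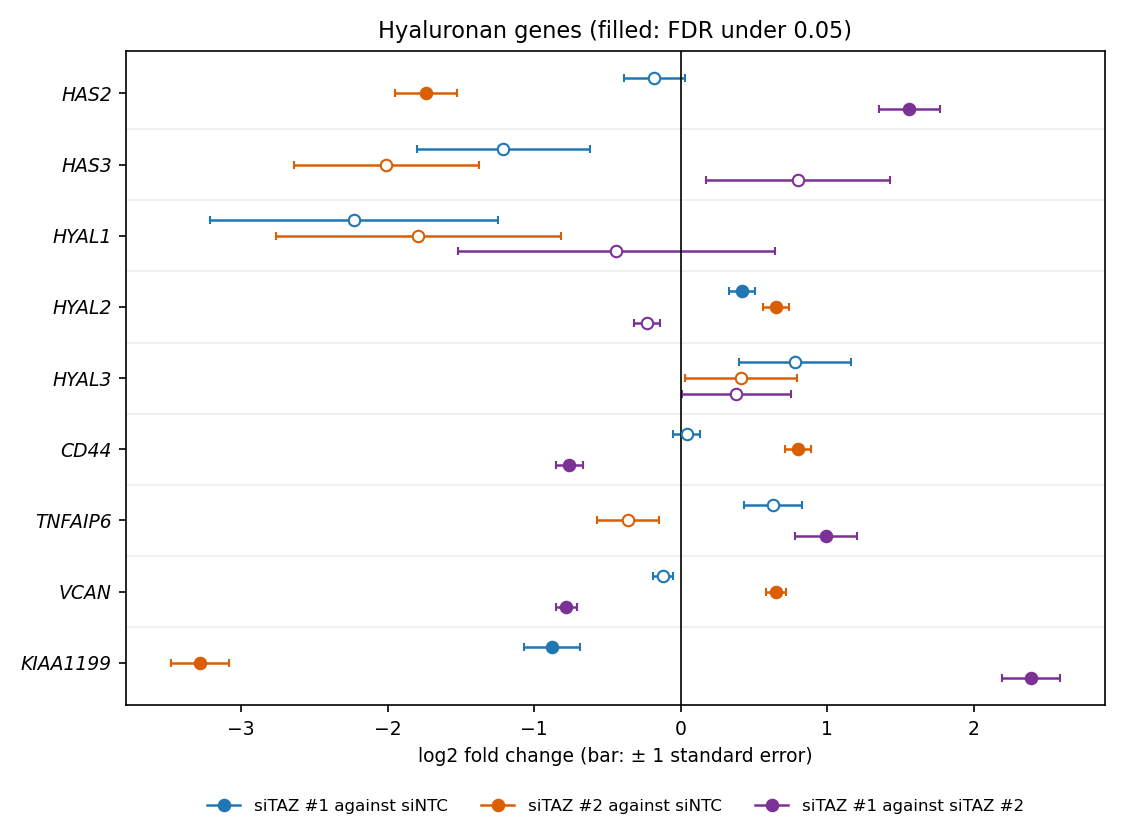
Log2 fold changes of the 9 tested hyaluronan genes, with bars of 1 standard error, for each siRNA against siNTC and for siTAZ #1 against siTAZ #2. Filled points have an FDR under 0.05 in edgeR's quasi-likelihood test. KIAA1199, at -3.28 with siTAZ #2, lies farthest from 0.

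Per kb of transcript, the order of the 10 genes in siNTC was CD44 (241.3), VCAN (37.2), HYAL2 (32.4), HAS2 (12.3), KIAA1199 (9.58), TNFAIP6 (6.58), HYAL3 (2.04), HAS3 (0.611), HYAL1 (0.529) and HAS1 (0.015). Among neighbours in that order, the siNTC libraries of HAS3 (0.560 to 0.663) and HYAL1 (0.406 to 0.653) overlapped, and those of all other neighbours were apart. With siTAZ #1, HYAL2 (43.5) stood above VCAN (34.2), and TNFAIP6 (10.2) above KIAA1199 (5.20). HAS2 (9.56 to 12.2) and TNFAIP6 (9.35 to 11.0) then overlapped. With siTAZ #2, TNFAIP6 (5.12) stood above HAS2 (3.68), and KIAA1199 (0.987) came below HYAL3 (2.71). In that group HAS2 (3.05 to 4.31) overlapped with HYAL3 (1.79 to 3.63), and HYAL1 (0.023 to 0.297) with HAS3 (0.0576 to 0.234). These lengths are those of canonical GENCODE transcripts and not of the annotation used for counting, so ratios between genes are approximate.

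The wider pathway was described with 6 lists of 39 genes, of which 25 were tested. With siTAZ #1, 3 fell and 3 rose, and with siTAZ #2, 5 fell and 3 rose. These shares, 24% and 32%, were near the 20.6% and 28.5% of all genes, and the medians were 0.07 and -0.09. UGDH, PTX3 and EZR were called with both siRNAs. The genes named next that were called with 1 siRNA are SLC35D1, RDX and NF2, which were chosen after their values were seen, and TMEM2, HAPLN3 and HMMR, the tested genes with the most counts in their lists.

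Of the 8 genes that supply UDP-sugars, all tested, 1 fell with siTAZ #1 and 2 fell with siTAZ #2. UGDH makes UDP-glucuronic acid, one of the building blocks of hyaluronan. It was at 210.9 and 197.7 CPM with siNTC, 147.0 and 167.5 with siTAZ #1, and 106.5 and 105.8 with siTAZ #2. The groups did not overlap. Its log2 fold changes were -0.38 (SE 0.09, FDR 0.039) and -0.94 (SE 0.09, FDR 0.0019), and the siRNAs differed by 0.57 (SE 0.09, FDR 0.0083). The siTAZ #1 fall was lost in 10 of 19 alternative settings, among them those without siNTC replicate 1 or 2 (FDR 0.20 and 0.13), without siTAZ #1 replicate 1 (FDR 0.059), without siTAZ #2 replicate 1 or 2 (FDR 0.079 and 0.072) and in the exact test (FDR 0.55), and the difference without siTAZ #2 replicate 1 or 2 (FDR 0.052 and 0.055) and in the exact test (FDR 0.21). SLC35D1, a carrier of UDP-sugars into the endoplasmic reticulum, fell with siTAZ #2 (-0.43, FDR 0.043), a call lost when any siNTC or siTAZ #2 library was left out. PGM3, a step towards UDP-N-acetylglucosamine and the gene of this list with the most counts, had log2 fold changes of 0.03 and -0.02 (FDR 0.84 and 0.92).

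**Figure D4:**
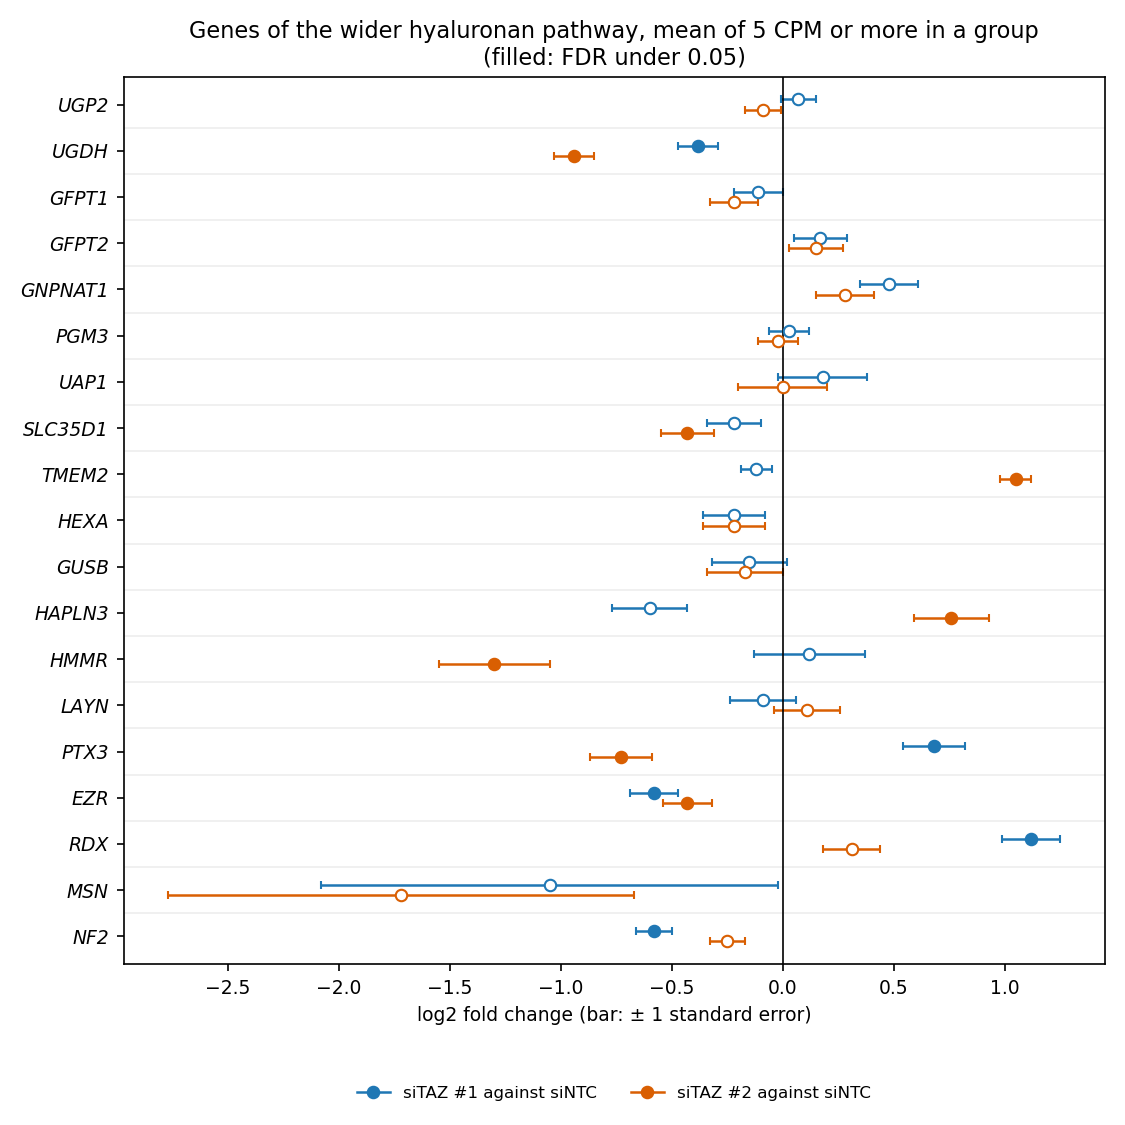
Log2 fold changes against siNTC, with bars of 1 standard error, of genes of the 6 pathway lists that were tested and had a group mean of 5 CPM or more. Filled points have an FDR under 0.05 in edgeR's quasi-likelihood test. PTX3 lies on opposite sides of 0 with the siRNAs, at 0.68 and -0.73.

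PTX3 codes for pentraxin 3, which joins TSG-6 and heavy chains in cross-linking hyaluronan. It was at 198.9 and 180.4 CPM with siNTC, 271.2 and 336.4 with siTAZ #1, and 105.8 and 123.3 with siTAZ #2. It rose with siTAZ #1 (0.68, SE 0.14, FDR 0.022) and fell with siTAZ #2 (-0.73, SE 0.14, FDR 0.013). The siRNAs differed by 1.41 (SE 0.14, FDR 0.0019), a difference called in each of 19 alternative settings. The rise was not called without siNTC replicate 1 or 2 (FDR 0.11 and 0.16) or in the exact test (FDR 0.19), nor the fall without siNTC replicate 1 or 2 (FDR 0.088 and 0.061) or siTAZ #2 replicate 1 (FDR 0.081). Of this list of 7, 3 were tested, and PTX3 was the gene called.

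Of 7 other link-module proteins and link proteins, 3 were tested. HAPLN3, a link protein that steadies the bond between hyaluronan and proteoglycans, was at 9.57 and 9.21 CPM with siNTC, 6.52 and 5.92 with siTAZ #1, and 15.8 and 15.9 with siTAZ #2. It rose with siTAZ #2 (0.76, SE 0.17, FDR 0.024), and its log2 fold change with siTAZ #1 was -0.60 (SE 0.17, FDR 0.061). The siTAZ #1 value was called without the stretch from RANGAP1 to the end of Y (-0.62, FDR 0.048). The siRNAs differed by -1.35 (SE 0.17, FDR 0.0038). The rise was not called when any siNTC or siTAZ #2 library was left out (FDR 0.10 to 0.13) or with an offset for GC content (FDR 0.079).

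Of 7 other receptors, 3 were tested. HMMR, the hyaluronan-mediated motility receptor, also a spindle protein that rises in dividing cells, was at 49.5 and 56.4 CPM with siNTC, 49.7 and 65.1 with siTAZ #1, and 26.2 and 16.8 with siTAZ #2. It fell with siTAZ #2 (-1.30, SE 0.25, FDR 0.014), and the siRNAs differed by 1.42 (SE 0.25, FDR 0.01). The fall was not called without siNTC replicate 1 or 2 (FDR 0.065 and 0.088) or siTAZ #2 replicate 2 (FDR 0.053).

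The cytoskeletal partners of CD44 are the linkers EZR, RDX and MSN, and NF2, a tumour suppressor of the same family that acts upstream in the Hippo pathway. EZR was at 196.3 and 225.7 CPM with siNTC, 133.2 and 149.5 with siTAZ #1, and 162.2 and 151.5 with siTAZ #2, and fell with both (-0.58, FDR 0.017, and -0.43, FDR 0.033). Both falls were lost without siNTC replicate 1 or 2 and with an offset for GC content (FDR 0.061 to 0.16), that with siTAZ #1 also in the exact test (FDR 0.25), and that with siTAZ #2 also without either siTAZ #2 library (FDR 0.097 and 0.13). RDX rose with siTAZ #1 (1.12, SE 0.13, FDR 0.0046) and was at 0.31 with siTAZ #2 (FDR 0.13). The siTAZ #2 value of RDX was called in the exact test (FDR 0.026) and in the fit of 4 libraries (FDR 0.034). The siTAZ #1 rise of RDX was not called without siNTC replicate 1, where it was 1.05. NF2, itself on chromosome 22 ahead of the near-missing stretch, fell with siTAZ #1 (-0.58, SE 0.08, FDR 0.0071) and was at -0.25 with siTAZ #2 (FDR 0.07). The siTAZ #2 value of NF2 was called in the exact test (FDR 0.034) and in the fit of 4 libraries (FDR 0.039). The siTAZ #1 fall of NF2 was lost with an offset for GC content (FDR 0.073) and in the exact test (FDR 0.21). It was also lost without siNTC replicate 1 or 2, where it was -0.61 and -0.56.

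MSN, on X, lies in the stretch where siTAZ #1 replicate 2 was nearly without counts. It was at 694.2 and 715.1 CPM with siNTC, 639.1 and 41.6 with siTAZ #1, and 212.8 and 213.7 with siTAZ #2. Both siTAZ #2 libraries lay far below the controls. In the fit of 6 libraries the siTAZ #2 difference was -1.72 (SE 1.05, FDR 0.27), and without siTAZ #1 replicate 2 it was -1.73 (FDR 1.8e-12). For siTAZ #1 only replicate 1 can be read.

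The genes whose pattern over the 6 libraries lay nearest to KIAA1199, by the root mean square distance of log2 CPM centred on the siNTC mean, were SAMD12 (0.267), PKDCC (0.34) and GUCY1B3 (0.386). PKDCC, a secreted kinase, averaged 112.0 CPM with siNTC, 68.4 with siTAZ #1 and 15.6 with siTAZ #2. GUCY1B3, a subunit of the nitric oxide receptor guanylate cyclase, averaged 15.2, 6.06 and 1.72 CPM. SAMD12 averaged 10.1, 6.31 and 0.742 CPM. With siTAZ #2 all of them fell, with log2 fold changes of -3.72 for SAMD12, -2.85 for PKDCC and -3.14 for GUCY1B3 (FDR 0.0051, 0.00063 and 0.0012). As they were picked for their likeness to KIAA1199 in these same libraries, their falls follow from the choice and are no separate support. With siTAZ #1 PKDCC (-0.71, FDR 0.028) and GUCY1B3 (-1.34, FDR 0.015) fell, calls lost without siNTC replicate 1 or 2, and for PKDCC also without either siTAZ #2 library. SAMD12 was at -0.68 (FDR 0.33) with siTAZ #1.

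**Figure D5:**
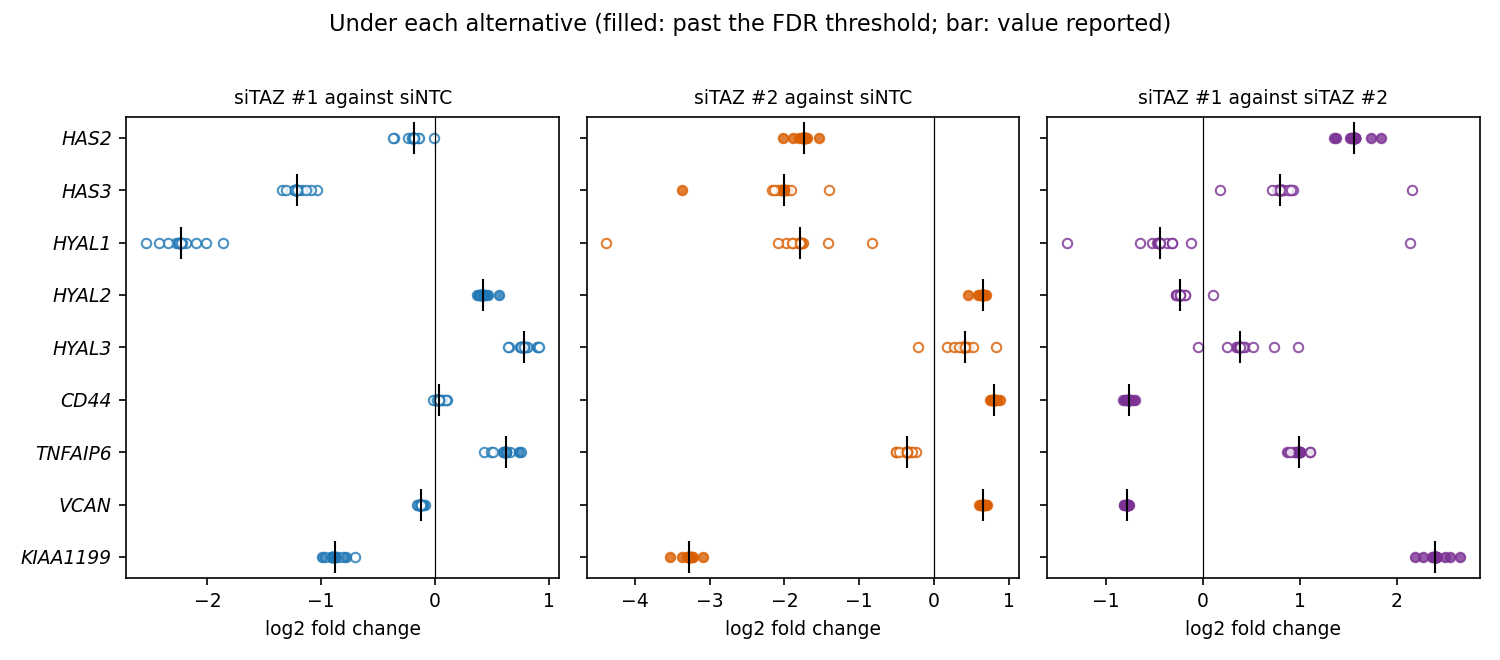
Log2 fold changes of the 9 tested hyaluronan genes in each comparison under every alternative setting (up to 19 points per gene, filled where past the FDR threshold), with a bar at the value reported. The points of KIAA1199 with siTAZ #2 lie between -3.53 and -3.09, and those of HAS2 between -2.02 and -1.54.

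Across the alternative settings, the calls of HAS2, KIAA1199, CD44 and VCAN with siTAZ #2 and of HAS2 and KIAA1199 between the siRNAs were made each time. The highest FDR among the siTAZ #2 calls was 0.035 for HAS2, 0.017 for KIAA1199, 0.043 for CD44 and 0.045 for VCAN.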

How the data were processed

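RNA from HFL-1 cells was sequenced on an Ion Proton. The authors mapped reads to hg19 using TMAP and assigned them to genes using HTSeq 0.6.1. The deposited values are raw counts, not normalized. HTSeq's strand setting and overlap mode are not given in the sources used here. The table has 23368 entries, of which 13 hold a date in place of a symbol and were dropped (0.0458% to 0.0506% of a library's counts). The rest summed to 15648055 to 32078188 counts per library, and a deeper library has smaller counting errors. KIAA1199 and TMEM2 are listed under these older symbols.

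The quasi-likelihood test of edgeR 4.0.16 (R 4.3.3) was run once on all 6 libraries, after filterByExpr and TMM scaling, and p-values were adjusted by Benjamini-Hochberg over 14053 genes (FDR threshold 0.05). The study's methods name edgeR without naming its test. Standard errors come from the F statistic, and intervals are at 0.95. Floors (3 counts over the group) and Wilson intervals cover counting error only. With 2 libraries per group, the spread was shared across groups.

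The hyaluronan genes, the pathway and marker lists and the rules were chosen with earlier results of these data known. Genes named are the 10 members, WWTR1, pathway genes with an FDR under 0.05 for both siRNAs, the tested gene with the most counts in each list, and the 3 genes nearest to KIAA1199. A pathway gene that this rule names is not reported here. Positions are from GENCODE 44 on GRCh37 and promoters from RefSeq on GRCh38.p14.

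As alternatives, the test was changed (DESeq2 1.42.0, or edgeR's exact test), the scaling and the filter were changed, 4 libraries were fitted alone, a replicate block or a GC offset (GC known for 94.5% of genes) was added, the stretch from RANGAP1 to the end of Y or each library in turn was left out, and the FDR was set at 0.1. A crossed replicate block was chosen after seeing the data.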

Additional observations from a re-analysis of the deposited data

Results flagged for a closer look

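For 5 of the hyaluronan genes, the effects of the siRNAs differed from each other in the direct test of edgeR (FDR under 0.05). The log2 difference, siTAZ #1 minus siTAZ #2, was 2.39 for KIAA1199, 1.56 for HAS2 and 0.99 for TNFAIP6, and -0.76 for CD44 and -0.78 for VCAN. The libraries of the siRNAs did not overlap for any of these 5 genes, nor did they for 65.6% of all genes tested. These 5 were picked by a test on the same libraries, so the separation adds no support. In the direct test 28.6% of all genes were called. WWTR1 RNA itself was lower with siTAZ #1 than with siTAZ #2, by a log2 difference of -0.70 (FDR 0.005, and 0.24 in the exact test on 4 libraries). The changes of HAS2, KIAA1199, CD44 and VCAN against siNTC were larger in size with siTAZ #2. That of TNFAIP6 was larger with siTAZ #1 (0.63 against -0.36, neither called). How these differences relate to the level of TAZ was not tested.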

How the results depend on the processing

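For the hyaluronan genes, the number called with siTAZ #1 was 2, and it was 1 in the exact test, without a filter on low counts, in the fit of 4 libraries and with a GC offset, and 0 to 3 when 1 library was left out. The gene called with siTAZ #1 in the exact test was HYAL1 (FDR 0.023). That test called neither KIAA1199 (FDR 0.1) nor HYAL2 (FDR 0.57) with siTAZ #1. With siTAZ #2 (5 called), the exact test also called HAS3 (FDR 0.002) and HYAL1 (FDR 0.045). The siTAZ #2 call of HYAL2 was lost without siNTC replicate 1 or 2. Between the siRNAs (5 called), the number was 2 in the exact test, and the call of TNFAIP6 was lost without siTAZ #2 replicate 1 or 2. Over all genes, those lower and higher with siTAZ #1 (1374 and 1515) numbered 492 and 569 in the exact test, and 277 to 2604 and 279 to 2496 when 1 library was left out. With siTAZ #2 (2021 and 1983) they numbered 3165 and 3259 in the exact test, and 714 to 3011 and 614 to 3031 with 1 library left out, with 3073 higher in the fit of 4 libraries. Between the siRNAs (1883 and 2137) they numbered 703 and 795 in the exact test, and 775 to 2828 and 1022 to 2831 with 1 library left out. A GC offset moved the share of lower genes there from 46.8% to 34.6%. Without the stretch from RANGAP1 to the end of Y, genes lower and higher with siTAZ #1 numbered 1954 and 2055. The same fit gave 2549 and 2586 with siTAZ #2, and 2467 and 2586 between the siRNAs. The causes were not tested.

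Deviations of same-numbered libraries correlated at -0.00251 for siNTC and siTAZ #1, 0.0219 for siNTC and siTAZ #2, and -0.241 for siTAZ #1 and siTAZ #2. No clear positive correlation was thus seen between same-numbered libraries. With 2 libraries per group the deviations mirror each other, so differently numbered libraries correlated at these values with the sign turned. For siTAZ #1 and siTAZ #2 that is a positive correlation. These values cannot tell whether the libraries were prepared in pairs. With a replicate block, 0 hyaluronan genes were called with siTAZ #1 (FDR 0.067 for HYAL2 and 0.065 for KIAA1199), and 823 and 868 of all genes. Among the other genes named, the block also took away the calls of UGDH (FDR 0.089) and PKDCC (FDR 0.053) with siTAZ #1, and of SLC35D1 (FDR 0.086), HAPLN3 (FDR 0.057) and EZR (FDR 0.062) with siTAZ #2. With the crossed pairing of the block, chosen after seeing the data, 1256 and 1378 genes were called lower and higher with siTAZ #1. That pairing kept the siTAZ #1 calls of KIAA1199 (FDR 0.017) and HYAL2 (FDR 0.031) and lost that of UGDH (FDR 0.056).

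Directions turned for uncalled values only, apart from MSN. With 1 library left out, values with siTAZ #1 ran from -0.02 (without siTAZ #1 replicate 2) to 0.10 for CD44, from -0.09 (without siTAZ #1 replicate 2) to 0.30 for HMMR and from -0.06 (without siTAZ #1 replicate 1) to 0.11 for PGM3. With siTAZ #2 they ran from -0.21 (without siTAZ #2 replicate 2) to 0.83 for HYAL3 and from -0.08 to 0.02 (without siTAZ #2 replicate 1) for PGM3. Between the siRNAs they ran from -1.40 to 2.13 (without siTAZ #2 replicate 2) for HYAL1, from -0.05 (without siTAZ #2 replicate 1) to 0.98 for HYAL3, from -0.04 (without siTAZ #1 replicate 1) to 0.13 for PGM3 and from -2.35 (without siTAZ #1 replicate 1) to 1.59 for MSN. A GC offset gave 0.11 for HYAL2 between the siRNAs, -0.11 for HMMR and -0.06 for PGM3 with siTAZ #1, and -0.0015 for PGM3 between the siRNAs. PGM3 was at -0.00021 with siTAZ #1 under upper-quartile scaling and at 0.03 with siTAZ #2 under library totals. The low counts of HAS1, HAS3 and HYAL1 limit what can be said of them.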
